A study of Mus musculus with 8 samples.

Results

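The vacuolar proton pump is described here through 10 of its subunit genes, which are 10 of the 23366 gene symbols in the deposited count table. They were chosen by symbol, and their choice rested on the comparison of Th17 cultures with naive cells, in which Atp6v0d2 went from 0 counts to a high level. Values of the 10 genes in that comparison are therefore given as a description, and no test is drawn on for them there. Another 13 subunit genes, 14 accessory, assembly or regulator genes and lists of lysosomal genes are given beside them. All 10 subunits passed the filter on low counts.

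The study sequenced polyadenylated RNA of CD4+ T cells of C57BL/6 mice, with 8 libraries that form 4 groups of 2. Naive cells came from spleen and lymph node and received no treatment (replicates 1 and 2). The cells of the other 3 groups were activated with antibodies to CD3e and CD28 and kept for 3 days with TGFb and IL-6. These cytokines were given alone (called Th17 below, replicates 1 and 2), with PAM3CSK4 at 2 ug/ml (replicates 3 and 4), or with biglycan (replicates 7 and 8), for which the dose is not clear from the labels. PAM3CSK4 is a synthetic lipopeptide ligand of TLR2, a receptor for bacterial lipoproteins, and biglycan is a proteoglycan of the extracellular matrix that can also engage TLR2. Activation, polarization and time in culture cannot be told apart when Th17 cultures are set against naive cells, since all of them differ between these groups. The labels do not state whether the 2 libraries of a group are separate mice or cultures. P-values thus reflect the scatter of these libraries alone, and it may be technical.

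The pump, also called V-ATPase, has a cytosolic V1 sector that splits ATP and a membrane V0 sector through which protons pass into lysosomes, endosomes and Golgi compartments. Several subunits are encoded by more than one gene, and the isoforms of subunit a are known to differ in the membranes to which they direct the pump. In mice the d2 isoform is best known from osteoclasts, the cells that resorb bone, where it takes part in the fusion of their precursors. On lysosomes the pump also takes part in the activation of the growth regulator mTORC1 by amino acids, and many of its genes can be bound by the MiT/TFE factors (TFEB, TFE3, MITF and TFEC) at sites with the core CACGTG.

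Gene counts summed to 7012244 to 12533045 per library, so that 3 counts corresponded to 0.239 to 0.428 CPM (counts scaled to library size with TMM factors). Between 12847 and 13774 genes had at least 1 count, and ribosomal RNA took 1.43 to 3.04% of reads. Mitochondrial RNA took 9.87 and 11.98% of naive reads. Its share of reads in cultures was 15.7 and 16.0% for Th17 alone, 14.3 and 14.7% under PAM3CSK4, 15.9 and 16.1% under biglycan. Naive libraries thus lay below all cultures and the PAM3CSK4 libraries below the other cultured ones, and the part of this in the results was not tested. Il17a, which encodes the cytokine that defines Th17 cells, had 0 counts in both naive libraries and lay at 77.1 to 179 CPM in the 6 cultured ones. The 6 T cell markers in the table summed to 4586 to 5070 CPM over all libraries, but they did not move together. Cd28 went from 1163.5 and 1008.8 CPM in naive libraries to 2361 to 2734 CPM in cultures. Cd4 went from 1225 and 1124 CPM to 604 to 642 CPM. Cd3e, Cd3g and Lck also lay lower in every cultured library than in both naive ones, and Cd3d overlapped. The 9 macrophage and dendritic cell markers in the table summed to 22.7 to 24.2 CPM in naive libraries and to 10.4 to 15.3 CPM in cultures, with Tyrobp at 0 in all libraries. Of 9 osteoclast markers, Calcr, Ocstamp and Dcstamp had 0 counts in all libraries. The list summed to 388 to 406 CPM in naive libraries and to 48.3 to 55.4 CPM in cultures. Acp5 and Itgb3 carried that sum, at 120.3 and 145 CPM and at 265 and 260 CPM in naive libraries. The 5 B cell markers summed to at most 3.73 CPM, and the 6 markers of CD8 T and NK cells to 72.0 and 72.2 CPM in naive libraries and 6.96 to 9.31 CPM in cultures. In naive libraries Prf1 (50.6 and 51.3 CPM) and Cd8b1 (20.9 and 20.0 CPM) carried that sum. Cd8a lay at 0.597 and 0.505 CPM there and Nkg7 at 0.149 and 0.253 CPM, and Klrb1c and Ncr1 had 0 counts. The part of these other cells in the results was not tested. In bulk libraries, fewer cells of a type and less RNA per cell cannot be told apart.

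Promoter sequence in the RefSeq table of build GRCm38.p6 was available for 5 of the 10 genes. Atp6v0d2, Atp6v0a2, Atp6v1b2, Atp6v1c1 and Atp6v1h had no window there, so their promoters were not searched. Each window runs from 250 bases before to 50 bases after the annotated start. The sites are shown because CACGTG is the core of the MiT/TFE site in lysosomal gene promoters. The capitals mark CACGTG, or in Atp6v0a1 the AP-1 type motif TGANTCA, and each line is 30 bases read 5′ to 3′ on the strand of the gene.
Atp6v0b: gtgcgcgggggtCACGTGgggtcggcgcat
Atp6v0b: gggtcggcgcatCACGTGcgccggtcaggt
Atp6v0d1: ccctactgcggtCACGTGagacgcggtgcg
Atp6v1a: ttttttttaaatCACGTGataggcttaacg
Atp6v0e: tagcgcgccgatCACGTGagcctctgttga
Atp6v0a1: agcttatgtgggTGATTCAtattcttaagt
The Atp6v0b lines lie at chr4:117887348-117887377 and chr4:117887330-117887359 on the minus strand, and their motifs begin 36 and 18 bases upstream of the start. The Atp6v0d1 line lies at chr8:105566050-105566079 on the minus strand, and its motif spans the start itself. The Atp6v1a line lies at chr16:44139373-44139402 on the minus strand, with the motif 131 bases upstream. The Atp6v0e line, from a subunit outside the 10, lies at chr17:26676387-26676416 on the plus strand, where the motif falls on bases 4 to 9 of the transcript. The Atp6v0a1 line lies at chr11:101010275-101010304 on the plus strand, with the motif 111 bases upstream. The windows of Atp6v0a1 and Atp6v1a begin at starts that lie 976 and 443 bases inside the outermost start annotated for these genes.

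Both strands were searched for 5 motifs. CACGTG was found in 3 of the 5 genes with a window (Atp6v0b, Atp6v0d1 and Atp6v1a) and in 4 of the 17 subunit genes with one, beside 8.09% of all 27025 genes of the table, where a gene counts if any of its windows holds the motif. The longer TCACGTGA, which contains CACGTG, was found in Atp6v0d1, Atp6v1a and Atp6v0e, beside 1.12% of all genes. The CLEAR consensus, a longer palindrome that contains both, was found in 0 of the 17 genes, beside 0.37% of all genes. TGANTCA was found in 1 of the 5 genes, Atp6v0a1, beside 8.97% of all genes. GGAAA, the core of sites for NFAT factors, was found in 4 of the 5 genes, beside 64.4% of all genes. A match is a run of letters and no measurement of binding.

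Subunit d joins the membrane sector to the central stalk of V1, and mice have a widely expressed form, Atp6v0d1, and a restricted one, Atp6v0d2. Atp6v0d2 had 0 counts in both naive libraries, 279 and 246 CPM in Th17, 248 and 225 CPM with PAM3CSK4, and 244 and 256 CPM with biglycan. These levels rest on 2319 to 3305 raw counts per cultured library. Against a floor of 3 counts over the naive group, the mean level was at least 1279-fold higher in Th17, at least 1152-fold higher with PAM3CSK4 and at least 1217-fold higher with biglycan. The 3 cultured groups overlapped in their libraries. None of the 50-base windows of its transcript is shared with another annotated gene. Atp6v0d1 lay at 69.8 and 76.8 CPM in naive libraries and at 101 to 116 CPM in the 6 cultured ones, which were all above naive. Its log2 difference between Th17 and naive cells was 0.62 ± 0.08 (standard error derived from the edgeR F statistic, n = 2 per group, as for all such values below).

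**Figure D1:**
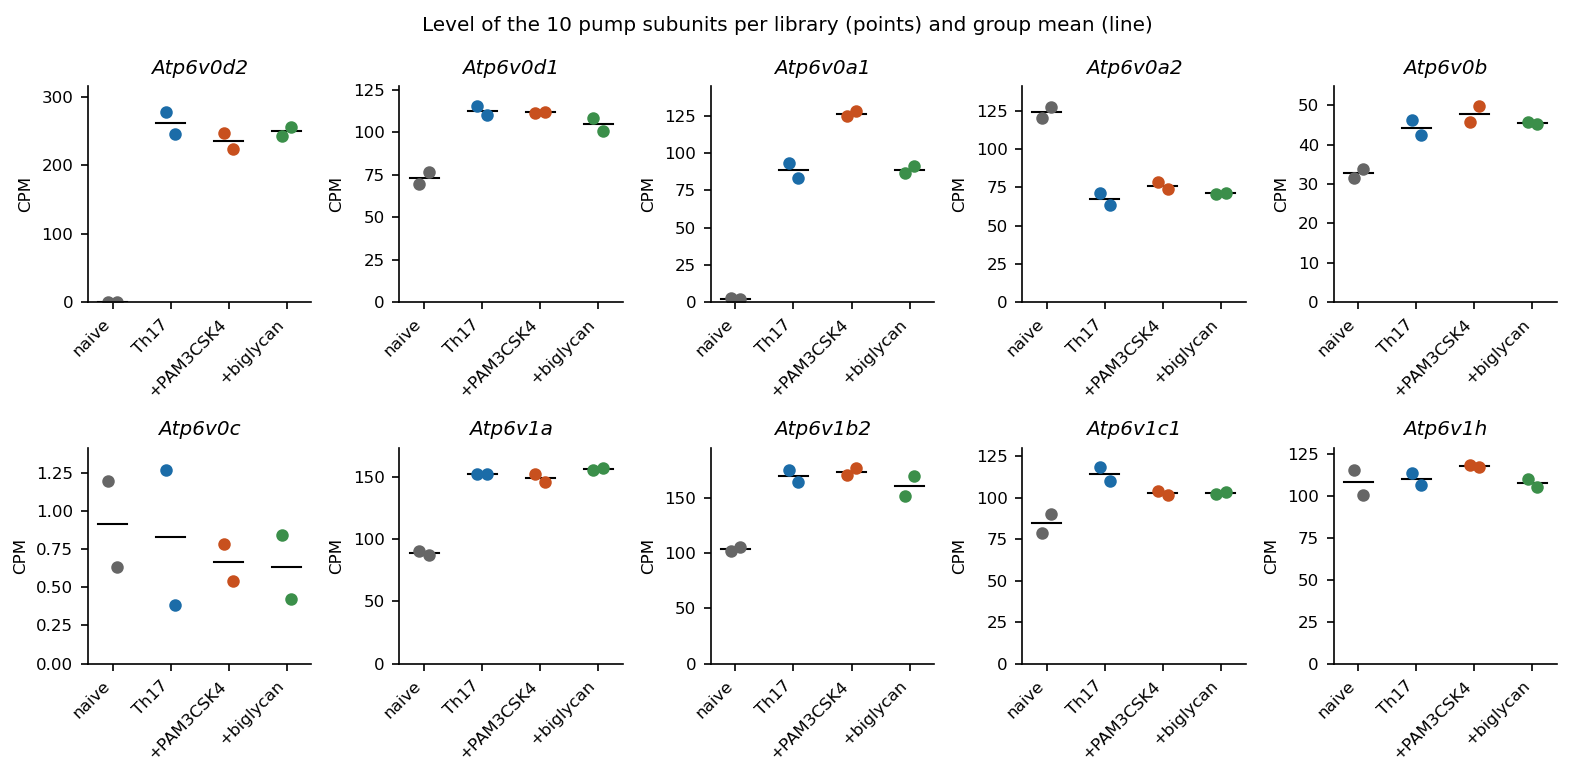
CPM (y axis, from 0, 1 scale per panel) of the 10 subunits in each library (points) with the group mean (line), for naive cells, Th17 cultures and Th17 cultures with PAM3CSK4 or biglycan. Atp6v0d2 stands at 0 in both naive libraries and between 225 and 279 in the cultures, Atp6v0a1 stands highest with PAM3CSK4, and Atp6v0a2 is the subunit whose naive libraries lie above all others.

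The 2 d genes were compared within each library on the deposited RPKM scale, which allows for transcript length. Its values are not the counts divided by a fixed length. In Th17, Atp6v0c had 15 and 4 counts but 0.916 and 0.893 RPKM. Atp6v0d2 stood at 62.2 and 55.0 RPKM in Th17 and Atp6v0d1 at 41.8 and 39.8 RPKM. Atp6v0d2 therefore gave 58.9 ± 1.28% (SD, n = 2) of the d messages in Th17, 56.5 ± 1.86% with PAM3CSK4 and 59.6 ± 1.99% with biglycan, and 0% in both naive libraries. The d2 gene was above d1 in all 6 cultured libraries, by 1.23 to 1.57 times. The RPKM scale stood 1.23 to 1.31 times higher relative to CPM in cultured than in naive libraries, so levels of 1 gene across groups are read from CPM.

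Subunit a holds the path of the protons through the membrane sector. Of its 4 genes, Atp6v0a1 is best known from neurons and Atp6v0a2 from the Golgi and endosomes, Tcirg1 encodes the a3 form of lysosomes and osteoclasts, and Atp6v0a4 the form of kidney and inner ear. Atp6v0a1 stood at 2.54 and 2.15 CPM in naive libraries, 93.3 and 83.5 CPM in Th17, 125 and 128 CPM with PAM3CSK4, and 86.6 and 91.4 CPM with biglycan. Every cultured library was above both naive ones, and the PAM3CSK4 libraries were above all others. The log2 difference between Th17 and naive cells was 5.24 ± 0.15, or 37.8-fold. Atp6v0a2 went the other way, from 120.3 and 128 CPM in naive libraries to 71.05 and 63.5 CPM in Th17, with 78.2 and 73.7 CPM with PAM3CSK4 and 70.8 and 71.6 CPM with biglycan. Its log2 difference between Th17 and naive cells was -0.88 ± 0.09, and the naive libraries lay above all cultured ones. For Atp6v0a2, 10.8% of the transcript's 50-base windows are shared with the gene 4930404A12Rik, so reads from there may not count toward it.

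Within the a messages on the RPKM scale, Atp6v0a2 held 82.9 ± 2.53% before culture and 41.02 ± 0.304% in Th17. Atp6v0a1 held 1.12 ± 0.0816% before culture and 41.1 ± 0.662% in Th17. Its share was 46.97 ± 1.43% with PAM3CSK4 and 40.9 ± 1.09% with biglycan. Tcirg1 held 14.2 to 18.5% in the 8 libraries, and the naive libraries overlapped each cultured group. Its share was 17.2 and 18.5% for Th17 alone, 16.3 and 14.8% under PAM3CSK4, 16.8 and 16.5% under biglycan, with no overlap among these 3. Atp6v0a4 had 0 counts in each of them. On the RPKM scale the a1 and a2 genes were thus level in Th17, with ratios of 1.01 and 0.996 in the 2 libraries. With PAM3CSK4 a1 exceeded a2 by 1.22 and 1.29 times on that scale. In raw counts, a1 was already above a2 in Th17 (1106 and 864 against 842 and 657). The same held with biglycan (824 and 864 against 674 and 677) and with PAM3CSK4 (1592 and 1416 against 998 and 815). Which of the 2 genes leads in Th17 and biglycan cultures thus depends on the scale, and the part of transcript length in this was not tested.

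**Figure D2:**
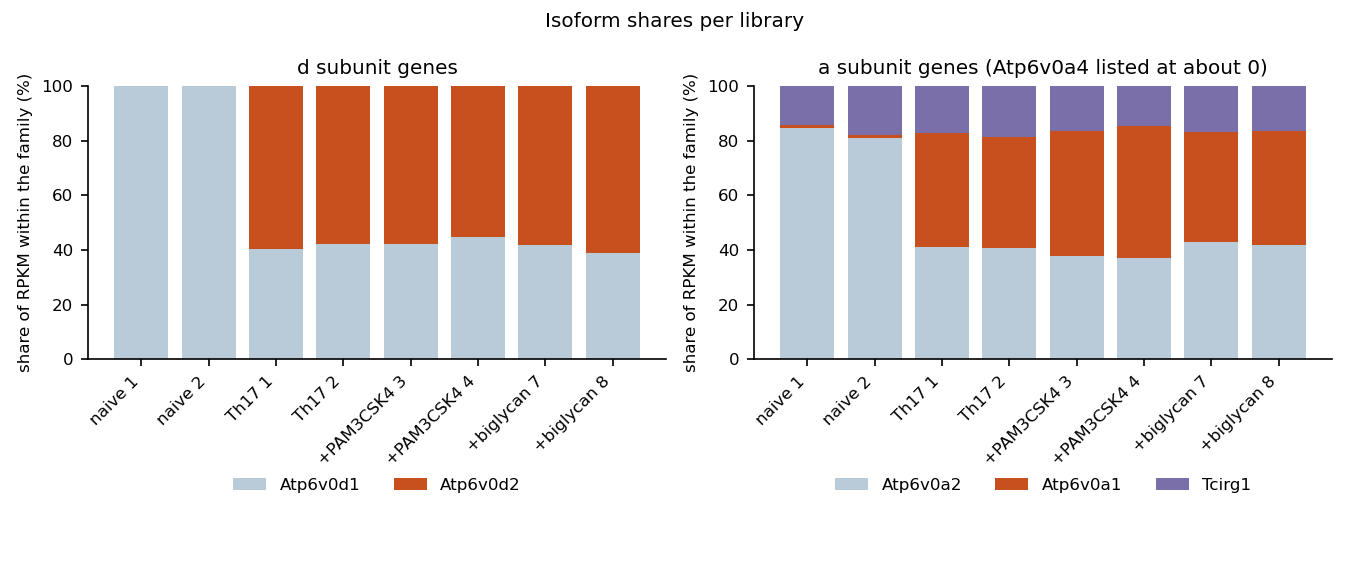
Share of RPKM within the d genes (left) and the a genes (right), in percent (y axis), for each of the 8 libraries (bars, replicate numbers as in the labels). Atp6v0d2 holds 55.2 to 61.0% of the d messages in cultures and 0% in naive libraries, and Atp6v0a1 holds 40.1 to 48.0% of the a messages in cultures.

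The proteolipid ring, which turns as protons pass, is built from the c and c'' subunits. Atp6v0b, which encodes c'', stood at 31.5 and 33.9 CPM in naive libraries, 46.2 and 42.3 CPM in Th17, 45.6 and 49.9 CPM with PAM3CSK4, and 45.7 and 45.4 CPM with biglycan. All cultured libraries lay above naive, with a log2 difference of 0.44 ± 0.11 between Th17 and naive cells. Atp6v0c, which encodes the main c subunit, had only 4 to 15 counts per library, or 0.387 to 1.27 CPM, and its groups overlapped. For Atp6v0c, 32.5% of the 50-base windows are shared with the pseudogenes Atp6v0c-ps2 and Atp6v0c-ps1, and Atp6v0c-ps2 had 0 counts in every library. Reads with more than 1 best place were set apart in a line of the deposited table that names no gene, and the part of such reads in the low count of Atp6v0c was not tested. Its log2 difference of -0.07 ± 0.64 between Th17 and naive cells is uncertain for the same reason.

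In the V1 sector, A and B subunits form the head that binds ATP, with catalysis in A. Atp6v1a lay at 90.6 and 87.7 CPM in naive libraries and at 146 to 157 CPM in the 6 cultured ones, all above naive, with a log2 difference of 0.77 ± 0.08 between Th17 and naive cells. Atp6v1b2, the B gene of most tissues, lay at 102 and 106 CPM in naive libraries and at 152 to 178 CPM in cultured ones, again with no overlap, and differed by 0.71 ± 0.08. Its isoform Atp6v1b1, known from kidney, had 1 count in all 8 libraries together. Subunits C and H link V1 to the membrane sector, and H keeps freed V1 from splitting ATP. Atp6v1c1 stood at 78.8 and 90.1 CPM in naive libraries and at 101 to 119 CPM in cultured ones, with a difference of 0.43 ± 0.09. Atp6v1h stood at 116 and 101 CPM in naive libraries and at 113 and 107 CPM in Th17, so that these groups overlapped (0.03 ± 0.08).

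In the fit over 11629 genes, 8 of the 10 subunits lay past the threshold applied to all genes between Th17 and naive cells, 7 of them higher in Th17. The same threshold (adjusted p under 0.05) called 72.1% of all tested genes, 37.8% as higher and 34.4% as lower. No overlap between the 2 groups was seen for 8 of the 10, beside 84% of all tested genes. Since the 10 genes were chosen on this comparison, these counts are no test of them and nothing is read from them.

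With ligands, 1 of the 10 subunits rose in PAM3CSK4 cultures against Th17 and 0 fell, beside 5.21% of all tested genes called as higher, 4.78% as lower and 9.99% in either direction (edgeR quasi-likelihood test, Benjamini-Hochberg adjusted p under 0.05). That gene was Atp6v0a1, which rose by 0.51 ± 0.08 on the log2 scale, or 1.43-fold (adjusted p = 0.0004, from 1.04e-06 to 0.0195 over the alternatives). It also rose against biglycan cultures, by 0.51 ± 0.08 or 1.42-fold (adjusted p = 0.000471, from 1.67e-06 to 0.0251 over the alternatives). This second comparison uses the same PAM3CSK4 libraries, called 11.5% of all tested genes (5.66% as higher, 5.88% as lower), and called 1 of the 10 subunits. In both, all PAM3CSK4 libraries lay above all libraries of the other group.

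Atp6v0d2, by contrast, did not pass the test in any ligand comparison. Its log2 difference was -0.15 ± 0.08 between PAM3CSK4 and Th17 (adjusted p = 0.297, 95% interval -0.32 to 0.02), and -0.07 ± 0.08 between biglycan and Th17 (95% interval -0.24 to 0.10). Between PAM3CSK4 and biglycan it was -0.08 ± 0.08 (95% interval -0.25 to 0.09). Differences within these intervals cannot be told from 0 with 2 libraries a group. The paired isoform Atp6v0d1 differed by -0.01 ± 0.08 with PAM3CSK4 and by -0.11 ± 0.08 with biglycan, with neither past the test.

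The other 7 subunits did not pass with PAM3CSK4 against Th17 either. Atp6v0a2 had the next smallest p (0.17 ± 0.08, adjusted p = 0.227), with no overlap between the groups. Atp6v1c1 was lower in both PAM3CSK4 libraries than in both Th17 libraries (-0.15 ± 0.08, adjusted p = 0.274), and Atp6v1h was higher in both (0.10 ± 0.08, adjusted p = 0.540). In all, groups did not overlap for 4 of the 10 subunits, beside 53% of all tested genes. Atp6v0c had a 95% interval of -1.60 to 0.92, too wide to read.

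Biglycan called 0 of the 10 subunits against Th17, and 0% of all tested genes. At an unadjusted p under 0.05 edgeR gave 507 of the 11629 genes and 0 of the 10 subunits, while DESeq2 called 0 genes after adjustment and 210 before. The smallest unadjusted p among the 10 was 0.0746, for Atp6v1c1 (-0.16 ± 0.08, 95% interval -0.33 to 0.02). Atp6v0a1, the gene that rose with PAM3CSK4, differed by 0.01 ± 0.08 (95% interval -0.17 to 0.18). Groups did not overlap for 3 of the 10, beside 34.2% of all tested genes, and for 6 of the 10 between PAM3CSK4 and biglycan, beside 58.9%.

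**Figure D3:**
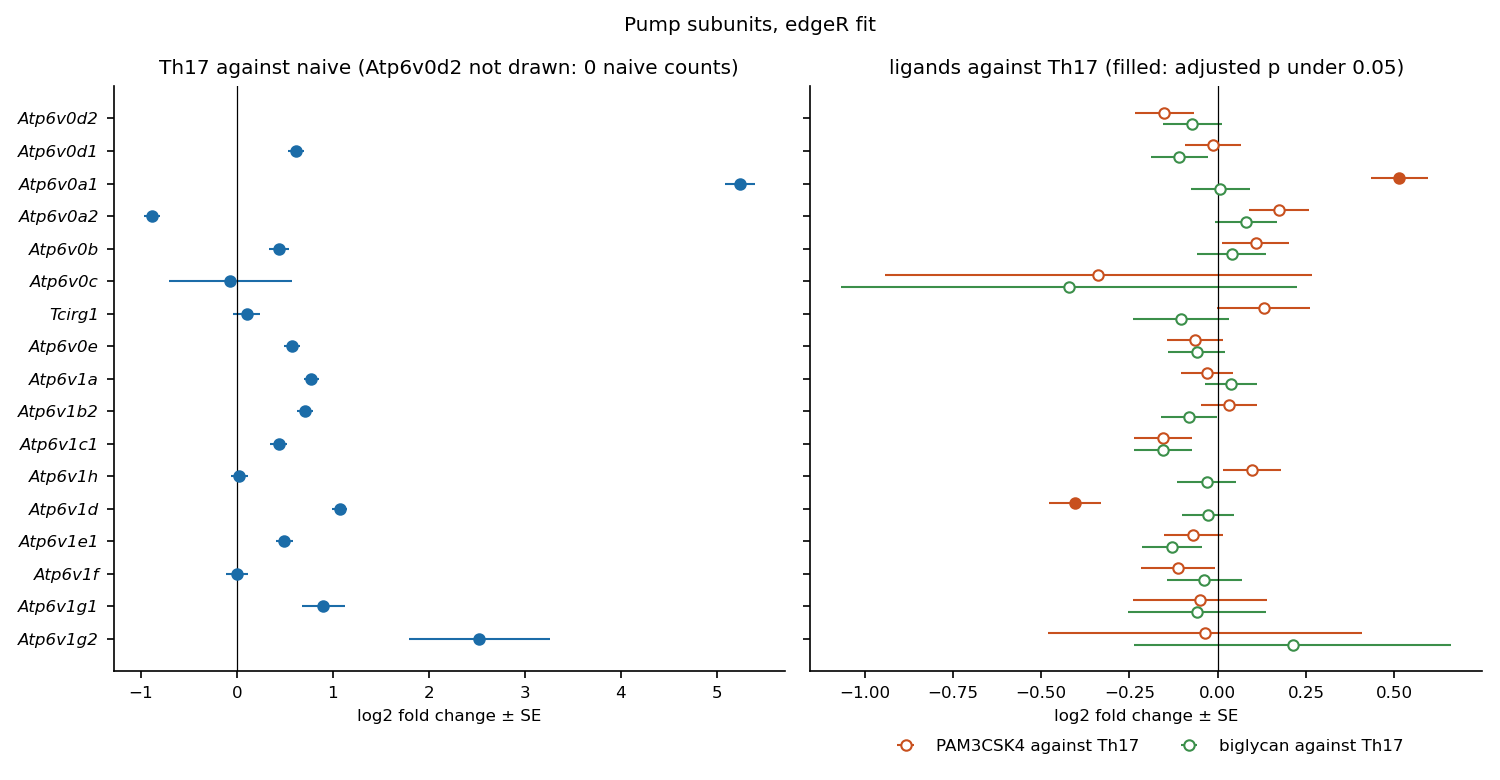
Log2 fold change ± standard error (x axis) of the 17 tested subunit genes (y axis), between Th17 and naive cells (left) and between each ligand and Th17 (right, with filled points for an adjusted p under 0.05). On the left, Atp6v0d2 is not drawn because it had 0 naive counts, and all points are filled whether called or not. On the right, Atp6v0a1 at 0.51 and Atp6v1d at -0.40, both with PAM3CSK4, are the only filled points.

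Of the 13 other subunit genes, 7 passed the filter on low counts. Between Th17 and naive cells 5 of these rose and 0 fell, beside 37.8% of all tested genes that rose and 34.4% that fell. Atp6v1d, which encodes the central shaft of V1, rose by 1.07 ± 0.08 and Atp6v0e, a small membrane subunit, by 0.57 ± 0.08. Atp6v1e1, of the peripheral stalks, rose by 0.49 ± 0.09. The stalk gene Atp6v1g1 rose by 0.90 ± 0.23, but 19.2% of its 50-base windows are shared with other annotated genes and the call ended without naive replicate 2 (0.59, adjusted p = 0.0501). The brain isoform Atp6v1g2 rose by 2.53 ± 0.73 at a low level, 0.149 and 0.379 CPM in naive libraries and 0.928 and 2.42 CPM in Th17. It passed the filter on low counts only through the cultures, so only a rise could be called. The 5 that rose and the median given below include it. The Atp6v1g2 call ended without Th17 replicate 2 (1.72). Tcirg1 (0.10 ± 0.14) and Atp6v1f (0.00 ± 0.11) did not pass. Atp6v0a4 and Atp6v1e2 had 0 counts in every library, and Atp6v0e2 and Atp6v1c2 had 1 and 5 counts in all. The median log2 difference of the 7 was 0.57, and that of all tested genes was 0.03.

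Atp6v1d was the subunit gene outside the 10 that passed with a ligand. It stood at 160.0 and 149.7 CPM in naive libraries, 326 and 325 CPM in Th17, 239 and 253 CPM with PAM3CSK4, and 315 and 324 CPM with biglycan. The PAM3CSK4 libraries lay between the naive libraries and the other cultures, with no overlap. It fell by 0.40 ± 0.07 on the log2 scale with PAM3CSK4 against Th17 (adjusted p = 0.00131, from 5.78e-05 to 0.0410 over the alternatives), where Atp6v0a1 rose. Against biglycan it fell by 0.38 ± 0.07 (adjusted p = 0.00228), a call that ended without PAM3CSK4 replicate 3 (adjusted p = 0.0503, from 6.29e-05 to 0.0503 over the alternatives). No other tested gene of the 13 passed in a ligand comparison. Of all tested genes, 9.99% were called with PAM3CSK4 against Th17, 0% with biglycan against Th17 and 11.5% between PAM3CSK4 and biglycan.

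On the RPKM scale the order of the subunit genes in Th17 was led by Atp6v1d (137 RPKM), Atp6v0e (98.2 RPKM) and Atp6v1e1 (81.7 RPKM), followed by Atp6v0d2 at 58.6 RPKM in place 4 of 23. Libraries of these 4 neighbours did not overlap in Th17. Next came Atp6v0d1 (40.8 RPKM) and Atp6v1b2 (35.2 RPKM), while Atp6v1c1, Atp6v1h and Atp6v1f overlapped each other between 27.4 and 33.3 RPKM. Atp6v0b (25.6 RPKM) and Atp6v1a (20.9 RPKM) stood above Atp6v0a1 and Atp6v0a2, which overlapped at 12.2 and 12.1 RPKM. In naive cells Atp6v0a1 stood at place 15 with 0.250 RPKM and Atp6v0a2 at place 8 with 18.6 RPKM. Atp6v0d2 kept place 4 with PAM3CSK4 and with biglycan.

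Of the 14 accessory, assembly and regulator genes, 3 rose and 4 fell between Th17 and naive cells, beside 37.8% of all tested genes that rose and 34.4% that fell. The median log2 difference of the 14 was -0.02. Dmxl2, of the RAVE-like complex that helps V1 and V0 join, went from 0.149 and 0 CPM to 1.69 and 2.71 CPM. It passed the filter on low counts only through the cultures, so only a rise could be called. It is 1 of the 3 counted above, and no test is drawn on for it. Its naive level is 1 count, so no fold is given. Tbc1d24, a TLDc domain gene, rose from 2.24 and 3.16 CPM to 7.09 and 8.41 CPM (adjusted p = 4.04e-05), and the assembly factor Tmem199 rose by 0.77 ± 0.15. Its partner in assembly, Ccdc115, fell by 1.03 ± 0.17 and Ncoa7, another TLDc domain gene, by 0.96 ± 0.12. Dmxl1, the paralogue of Dmxl2, fell by 0.32 ± 0.10, but the call ended without naive replicate 1 (adjusted p = 0.252) or without Th17 replicate 2 (adjusted p = 0.0530). Rogdi fell by 0.76 ± 0.32, a call that ended in 12 of 15 alternatives, among them those without naive replicate 1 (adjusted p = 0.0656), naive replicate 2 (0.174), Th17 replicate 2 (0.171) or any 1 ligand library (0.0512 to 0.0550). The accessory subunits Atp6ap1 (-0.17 ± 0.08) and Atp6ap2 (0.10 ± 0.09) did not pass, though both did without naive replicate 1 (-0.28, adjusted p = 0.00805, and 0.23, adjusted p = 0.0410).

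With PAM3CSK4 against Th17, 0 of these 14 genes rose and 1, the TLDc gene Oxr1, fell (-0.29 ± 0.09, adjusted p = 0.0325), beside 9.99% of all tested genes called. That call held in 7 of 14 alternatives. It ended with DESeq2 and without any 1 of the Th17, PAM3CSK4 or biglycan libraries, with adjusted p up to 0.264. Against biglycan, Ncoa7 fell (-0.44 ± 0.13, adjusted p = 0.0302), as did Oxr1 (-0.27 ± 0.09, adjusted p = 0.0469), beside 11.5% of all tested genes called. Both calls ended with DESeq2 and without any 1 library of the PAM3CSK4 or biglycan groups, with adjusted p up to 0.228 for Ncoa7 and up to 0.393 for Oxr1. The Oxr1 call also ended without either Th17 library.

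Among the MiT/TFE factors, Tfe3 rose between naive cells (27.0 and 29.3 CPM) and Th17 (42.7 and 49.0 CPM), by 0.70 ± 0.11 (adjusted p = 1.09e-05). Mitf fell by 1.62 ± 0.31 at a low level, from 7.31 and 5.31 CPM to 2.19 and 1.84 CPM (adjusted p = 0.000108). Tfeb stood at 19.1 and 20.6 CPM in naive libraries and 23.6 and 21.1 CPM in Th17 (0.17 ± 0.14, adjusted p = 0.296). Tfec had 0 counts in all libraries. With ligands 0 of the 3 tested factors passed. Of all tested genes, 9.99% were called with PAM3CSK4 against Th17, 0% with biglycan against Th17 and 11.5% between PAM3CSK4 and biglycan.

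The lysosome was followed through 29 enzyme genes, of which 12 rose and 11 fell between Th17 and naive cells, with a median of 0.01, beside 37.8% of all tested genes that rose and 34.4% that fell. The 3 that rose with the smallest p are proteases, Ctsc (1.95 ± 0.08), Lgmn (1.37 ± 0.10) and Ctsb (203 and 229.7 CPM in naive libraries, 465 and 450.5 CPM in Th17). Lipa, the acid lipase, fell by 1.15 ± 0.08, and Hexa and Neu1, which trim sugars from glycolipids and glycoproteins, by 1.11 ± 0.12 and 0.85 ± 0.12. Of the 19 tested membrane and transport genes, 13 rose and 2 fell, with a median of 0.45, beside the same 37.8% and 34.4% of all tested genes. Lamp2, a main protein of the lysosomal membrane, went from 51.0 and 50.9 CPM in naive libraries to 297 and 280 CPM in Th17 (2.50 ± 0.09). Ctns, the cystine exporter, rose by 1.39 ± 0.11 and Scarb2 by 1.14 ± 0.08, while Laptm5 fell by 0.35 ± 0.07. The other gene that fell was the channel Tpcn2 (-0.38 ± 0.16), a call that held in only 7 of 15 alternatives. It ended without naive replicate 1 (adjusted p = 0.177), Th17 replicate 1 (0.0891) or Th17 replicate 2 (0.0915). It also ended with DESeq2 (0.0978), library totals alone (0.0803), no low-count filter (0.0570), the 2 groups alone (0.0703) and the replicate block (0.0663).

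Of 20 genes of mTORC1 and its control at the lysosome, 10 rose and 4 fell between Th17 and naive cells, with a median of 0.21. Among all tested genes, 37.8% rose and 34.4% fell. The list holds activators and inhibitors of mTORC1, so these counts give no direction for its activity. Rragd, which encodes the RagD GTPase, went from 10.1 and 8.59 CPM to 86.2 and 80.2 CPM (3.16 ± 0.12), and Rragc and Fnip1 rose by 1.00 ± 0.09 and 0.94 ± 0.09. Lamtor2, of the Ragulator scaffold, fell by 1.46 ± 0.19, and Depdc5 and Rheb by 0.41 ± 0.09 and 0.36 ± 0.10. With PAM3CSK4, Rragd stood at 103 and 104 CPM, above all other libraries. It rose by 0.32 ± 0.08 against Th17 (adjusted p = 0.0148), a call that ended without Th17 replicate 2 (0.182), PAM3CSK4 replicate 3 (0.0881) or PAM3CSK4 replicate 4 (0.121), with a range of 0.00421 to 0.182 over the alternatives. Against biglycan it rose by 0.47 ± 0.08 (adjusted p = 0.000922, from 2.15e-05 to 0.0223). Of the 20 genes, 1 rose (Rragd) and 1 fell with PAM3CSK4 against Th17, beside 5.21% of all tested genes that rose and 4.78% that fell. The 1 that fell was the amino acid sensor gene Slc38a9 (-0.38 ± 0.11, adjusted p = 0.0306). Its call held in 7 of 14 alternatives, and ended with DESeq2 and without any 1 of the Th17, PAM3CSK4 or biglycan libraries, with adjusted p up to 0.296.

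Of the 29 enzymes, 1 rose and 5 fell with PAM3CSK4 against Th17, beside 5.21% of all tested genes that rose and 4.78% that fell. Arsb, which removes sulfate from dermatan and chondroitin sulfate, stood at 44.6 and 61.6 CPM in Th17, 28.8 and 29.5 CPM with PAM3CSK4, and 51.6 and 49.0 CPM with biglycan. It fell by 0.86 ± 0.13 against Th17 (adjusted p = 0.000177) and by 0.79 ± 0.13 against biglycan (adjusted p = 0.000468). Sgsh, which acts on heparan sulfate, fell by 0.52 ± 0.11 (adjusted p = 0.00423), a call that ended without Th17 replicate 2 (0.175) or PAM3CSK4 replicate 4 (0.0615). Against biglycan it fell by 0.56 ± 0.11 (adjusted p = 0.00231). Naglu, which also acts on heparan sulfate, fell (-0.58 ± 0.18, adjusted p = 0.0412) and the protease gene Ctsz rose (0.30 ± 0.09, adjusted p = 0.0437), as single calls that ended with DESeq2, without Th17 replicate 2 and without any 1 of the PAM3CSK4 and biglycan libraries, with adjusted p up to 0.401 and 0.290. The Ctsz call also ended without Th17 replicate 1 (0.119) and with library totals alone (0.0533). Of the membrane genes 0 rose and 1 fell, the channel Tmem175 (-0.35 ± 0.11, adjusted p = 0.0479), whose call held in only 4 of 14 alternatives. It ended without any 1 of the Th17, PAM3CSK4 or biglycan libraries, with adjusted p up to 0.289, and with DESeq2 (0.178), library totals alone (0.0559), no low-count filter (0.0525) and robust estimation (0.0503). Between PAM3CSK4 and biglycan, 3 enzymes fell and 0 rose, and 0 membrane genes passed. Of all tested genes, 5.88% fell and 5.66% rose in that comparison.

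Genes with a profile most like that of Atp6v0d2 over the 8 libraries were found by the root mean square difference of centred log2(CPM + 1). Among the 5 closest were Mt1 (0.151), Peli2 (0.181), Emp1 (0.263) and Il21 (0.351). Peli2, an E3 ligase gene, shared 0 naive counts with Atp6v0d2. Mt1, a metallothionein gene, and Emp1, of an epithelial membrane protein, stood at 313 to 402 CPM and 606 to 705 CPM in cultures. Il21, a cytokine gene, stood at 229 and 176 CPM in Th17 and at 336 and 333 CPM with PAM3CSK4, where it rose by 0.72 ± 0.09 (adjusted p = 5.33e-05). The measure takes in the step between naive and cultured libraries as well as differences among cultures, and it covers 4 groups only.

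**Figure D4:**
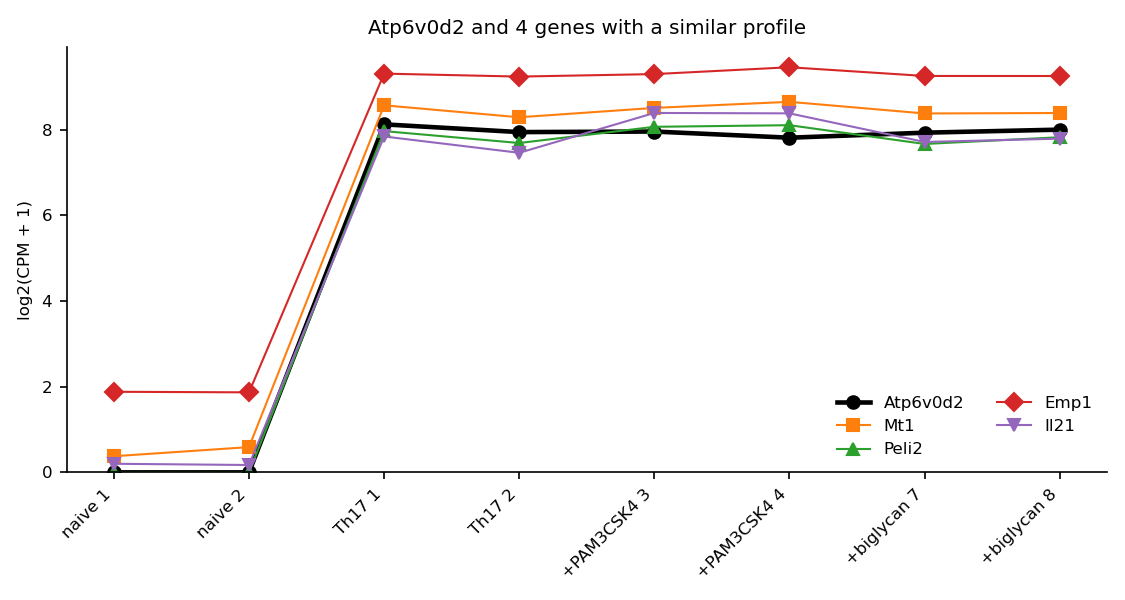
Level as log2(CPM + 1) (y axis) in each of the 8 libraries (x axis) for Atp6v0d2 and 4 of the 5 genes closest to it in profile. All 5 lines step up between the naive and the cultured libraries, and with PAM3CSK4 the line of Il21 stands higher than in Th17 while that of Atp6v0d2 does not.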

How the data were processed

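The authors deposited raw counts per gene for 23366 symbols and RPKM values for the same 8 libraries; reads were aligned to mm9 with Bowtie2 and counted with HTSeq, per the submitters' processing notes. Tool versions, the annotation and whether HTSeq used strand were not given in the sources used here, so overlapping and antisense genes cannot be told apart. The deposited mapping tables give percent of reads per RNA class, per the file headers. The 5 summary lines of the count table, which name no gene, were left out; the one of non-unique alignments made up 73.4 to 77.1% of a library's table total. The biglycan columns carry other numbers than the titles and were linked through the library number.

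Counts were analysed with edgeR 4.0.16 in R 4.3.3: filterByExpr (11629 genes), TMM factors and 1 quasi-likelihood fit with a mean per group over all 8 libraries, with Benjamini-Hochberg adjustment over all tested genes (common biological coefficient of variation 6.19%, 4 residual and 15.9 prior degrees of freedom). CPM was computed from the deposited counts. A fold against 0 counts is a bound against 3 counts over the group. Such floors cover counting error only. Standard errors of log2 fold changes are the absolute log2 fold change divided by the square root of the quasi-likelihood F statistic. The 95% intervals of log2 fold changes use these and the t distribution of the fit. Shares within a subunit family were computed from the deposited RPKM values. The Th17, PAM3CSK4 and biglycan libraries are shared between comparisons. Libraries of a group differed by more than sampling noise (chi-square per degree of freedom 2.62 to 5.86). Shared 50-base windows were counted in GENCODE transcripts, and promoters are RefSeq windows of GRCm38.p6. The fit was tested on simulated data that gave all genes the same spread, taken from this fit. That simulation is no check of changes in genes with low counts or with a spread of their own. The alternatives were DESeq2 1.42.0, other scalings and filters, the 2 groups alone, a replicate block and each library left out.

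The subunits and gene lists were chosen with earlier results of these data known. Named were all subunits and pump-related genes, up to 3 genes per direction of each lysosomal list with the smallest p, and the 5 genes with the profile most like that of Atp6v0d2. Some genes that these rules select are not reported here. Protein sequences were not used here.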

Additional observations from a re-analysis of the deposited data

How the results depend on the processing

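In the 3 ligand comparisons no call of the 10 subunits changed under the 14 alternatives run for each (13 for Atp6v0c). The counts over all genes moved more. PAM3CSK4 against Th17 called 1162 genes, 773 with DESeq2, and 361 to 1607 with 1 library left out (361 when Th17 replicate 2 was left out, 594 and 387 when PAM3CSK4 replicate 3 or 4 was). PAM3CSK4 against biglycan called 1342 genes, 2231 with the 2 groups alone, 881 with DESeq2, and 360 to 1878 with 1 library left out (360 without biglycan replicate 7, 449 without PAM3CSK4 replicate 4, 625 without biglycan replicate 8 and 777 without PAM3CSK4 replicate 3). Biglycan against Th17 called 0 genes, 1 with library totals alone, 29 without the low-count filter, and 1 to 7 with 1 library left out. Th17 against naive called 8390 genes, and 7793 to 8391 with 1 library left out. Where an arm was left with 1 library, that library is assumed to vary like the other groups. A replicate block gave 8051 genes, but the numbers are not shown to pair the libraries (r = 0.0550 between the deviations of equally numbered naive and Th17 libraries, 2 pairs). In raw counts, Atp6v0d2 was 69.9, 67.9 and 70.5% of d counts in Th17, PAM3CSK4 and biglycan cultures. Leaving out 1 library gave RPKM shares of 58.0 to 59.8, 55.2 to 57.9 and 58.2 to 61.0%, and 0% in naive cells. The cause of these moves was not tested. Low counts limit what can be said of Atp6v0c, Atp6v1g2 and Dmxl2. A comparison of protein sequences was not run.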
